A study of Mus musculus with 36 samples.

Results

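Erbb2, Fgf18, Gpc4 and Inpp4b are 4 growth signalling genes among the 988 genes of a targeted RNA panel for immune and cancer genes, and they were read in 34 libraries of mouse colon and colon tumours. The genes were chosen by name, from earlier results on these same counts in which their mean was lower in tumours of mast cell-deficient mice than in those of wild-type mice. That difference is therefore given as a description, with no test. Fgf18 is a secreted ligand of the fibroblast growth factor family, and Erbb2 is a receptor tyrosine kinase of the epidermal growth factor receptor family. Gpc4 encodes glypican 4, a heparan sulphate proteoglycan tethered to the cell surface. Inpp4b is a lipid phosphatase inside the cell.

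Tumours induced by azoxymethane (AOM), a chemical that causes tumours in the rodent colon, came from mice with the Kit "sash" mutation (strain C57BL/6 (cKitw-sh), n = 5, called sash here) and from wild-type C57BL/6 mice (n = 5). These mice were 32 weeks old, and had last been injected 18 weeks before, in a course of 6 intraperitoneal doses of AOM (10 mg/kg, 1 per week). Preneoplastic lesions of the colon came from sash mice and from wild-type mice (n = 3 each) aged 14 weeks, given 3 AOM injections over 3 weeks and killed 3 weeks later. In the drug experiment, wild-type C57BL/6 mice of 14 weeks received cromolyn together with AOM (n = 3), cromolyn for 3 weeks after AOM (n = 3) or AOM only (n = 3). The AOM-only mice were given 3 AOM injections, and no number of injections was read from the labels of the cromolyn groups. All groups of this experiment were labelled 3 weeks after the last injection. Cromolyn is a drug used to stabilise mast cells. All of these groups were given AOM, so no untreated colon was part of the comparisons. The remaining libraries are of MC-38, a mouse colon carcinoma line, labelled sash (n = 5 analysed) or wild type (n = 4 analysed) with saline as the treatment. That genotype was read here as the host's, and the labels give no age or strain for these samples. The sash mutation is carried in every tissue of the mouse, also in the pacemaker cells of the gut wall that depend on Kit, and is not confined to mast cells. The comparisons ask how mast cells bear on early and late steps of colon cancer.

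As background, growth factor ligands bind receptor tyrosine kinases, which pass the signal on through the RAS and MAP kinase cascade and through phosphoinositide 3-kinase (PI3K) and AKT. Erbb2 has no known ligand of its own and signals as a partner of its sister receptors, while heparan sulphate chains such as those of glypicans bind growth factors and present them to receptors. Inpp4b removes a phosphate from a phosphoinositide that PI3K signalling produces and so acts on the AKT branch. In human colon tumours, FGF18 is known as a gene raised by WNT signalling.

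The promoter sequences of the ligand Fgf18 and the glypican Gpc4 are shown because these are the 2 genes whose sash and wild-type libraries did not overlap at either stage after TMM scaling, with opposite directions in tumours and in lesions. Each is the 250 bases before the annotated start of the gene, read 5′ to 3′ on the gene's strand, from RefSeq (GRCm38.p6), in which all 4 genes were found by symbol. The Fgf18 promoter lies at chr11:33147401-33147650 on the minus strand and the Gpc4 promoter at chrX:52164924-52165173 on the minus strand. Capitals mark the GC box, GGGCGG, which in both promoters lies on the opposite strand.
Fgf18: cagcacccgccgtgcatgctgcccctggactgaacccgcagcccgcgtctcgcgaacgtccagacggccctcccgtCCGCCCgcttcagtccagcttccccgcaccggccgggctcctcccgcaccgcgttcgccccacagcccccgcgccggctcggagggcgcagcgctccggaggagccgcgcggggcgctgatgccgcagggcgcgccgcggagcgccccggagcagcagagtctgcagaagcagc
Gpc4: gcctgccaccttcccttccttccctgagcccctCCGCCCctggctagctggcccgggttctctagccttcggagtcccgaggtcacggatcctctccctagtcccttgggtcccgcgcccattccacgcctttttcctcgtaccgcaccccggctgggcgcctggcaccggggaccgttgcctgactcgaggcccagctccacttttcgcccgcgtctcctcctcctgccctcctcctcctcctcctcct
The GC box starts at −174 in Fgf18 and at −217 in Gpc4, counted from the gene's start. At least 1 GC box on either strand occurred in 32.7% of 32851 mouse promoter windows of this length, and the windows of Erbb2 (chr11:98412234-98412483, plus strand) and Inpp4b (chr8:81342312-81342561, plus strand) held none. Both shown promoters were rich in G and C, with 77.2% in Fgf18 and 68.4% in Gpc4, against 66.0% in Erbb2, 66.0% in Inpp4b and a median of 52.4% over all windows. The core of the TCF/LEF motif, CTTTGAT, through which WNT signalling acts on genes, had 0 matches in the 4 windows and occurred in 3.21% of all windows. The TATA box (TATAAA, 12.4% of windows), the E-box (CACGTG, 6.02%) and the AP-1 site (TGANTCA, 6.75%) were also without a match in the 4 windows. The CCAAT box (CCAAT, 33.8% of windows) had 1 match in Erbb2 and 1 in Inpp4b. These are matches of letters and not measured binding sites.

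The deposited counts summed to 449880 to 1264354 per library in the AOM experiments and to 480136 to 986415 in the MC-38 tumours. Levels are given as CPM (counts relative to the library total) after TMM scaling, which adjusts library sizes for composition, and they can be compared between samples but not between genes, since each gene is read through its own amplicon. The mast cell markers (6 of 8 listed genes on the panel) summed to 66.2 to 120.4 CPM in sash tumours and 181 to 561 CPM in wild-type tumours, to 133 to 158 CPM in sash lesions and 386 to 541 CPM in wild-type lesions, and to 8.21 to 31.5 CPM in MC-38 tumours of sash hosts and 386 to 1151 CPM in those of wild-type hosts. Kit itself was at 49.7 to 99.3 CPM in sash tumours and 95.3 to 476 CPM in wild-type tumours, and at 114 to 143 CPM in sash lesions and 334 to 509 CPM in wild-type lesions. In MC-38 tumours Kit was at 2.05 to 23.2 CPM in sash hosts and 5.97 to 18.1 CPM in wild-type hosts. The markers other than Kit did not all differ in the colon. Cma1 overlapped between sash and wild type in tumours (6.64 to 15.7 and 3.54 to 50.7 CPM) and lesions (9.72 to 14.3 and 0 to 24.8 CPM). So did Tpsb2 in tumours (0.83 to 29.9 and 14.1 to 56.7 CPM) and lesions (1.18 to 9.72 and 7.53 to 25.8 CPM). Cpa3 did not overlap (0 to 9.92 and 11.4 to 84.6 CPM in tumours, 0 and 1.51 to 22.6 CPM in lesions). In sash lesions 3 markers were at 0 throughout, in wild-type lesions 1. Epcam, which marks epithelial cells, was at 9591 to 34760.3 CPM in the AOM libraries but at most 3.32 CPM in MC-38 tumours of sash hosts and 2.59 CPM in those of wild-type hosts, so these samples lacked an epithelial marker although they are labelled colon cancer cells. As these are bulk samples, fewer cells of a type and less RNA per cell cannot be told apart.

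**Figure D1:**
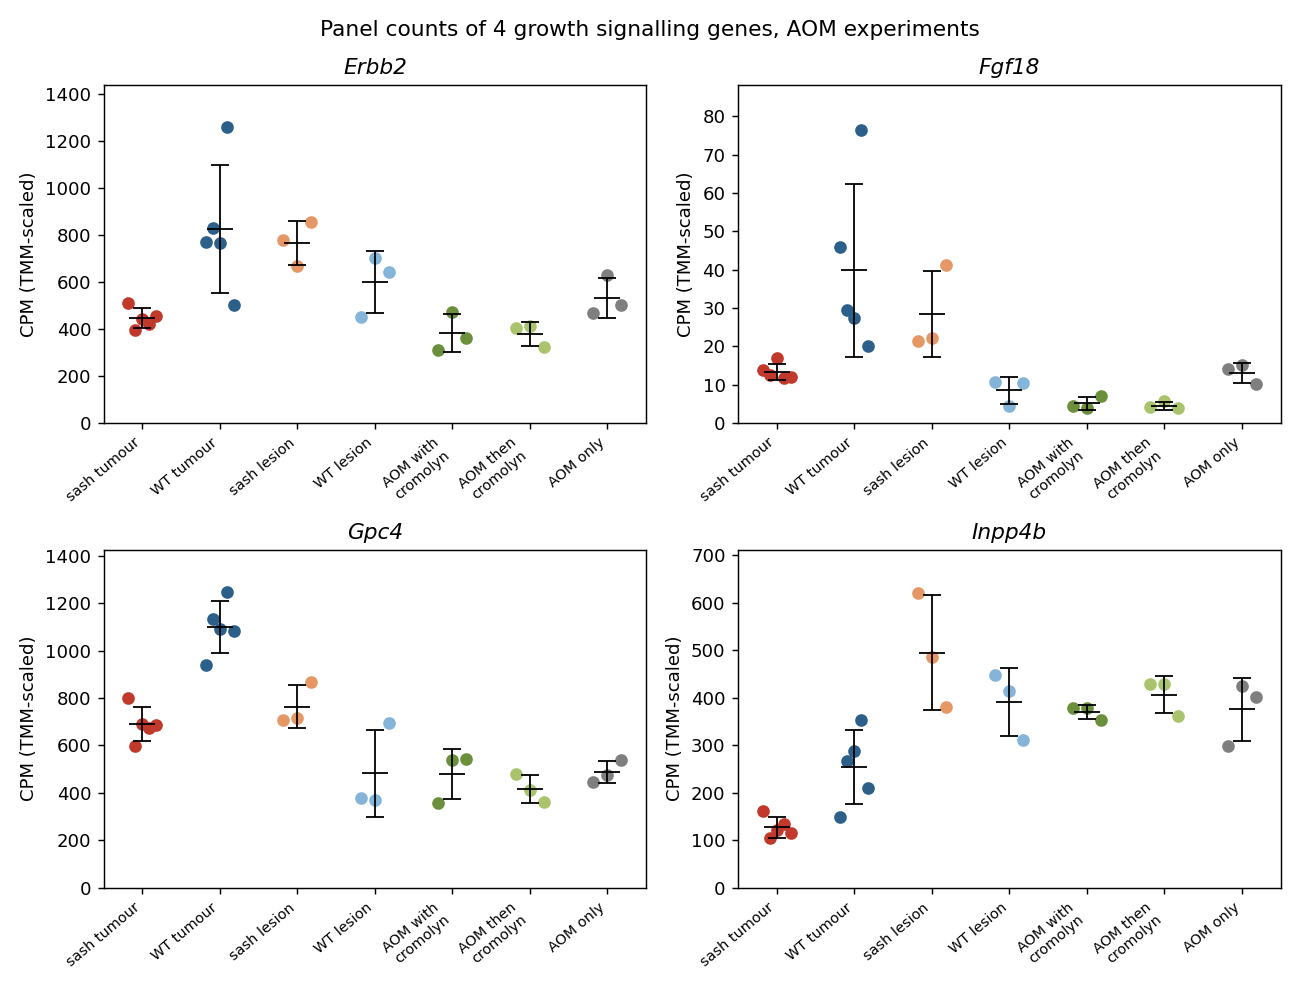
Level of each gene (CPM, TMM-scaled, linear axis from 0) in every library of the 7 AOM groups; points are libraries and bars are the mean ± SD. Sash tumours sat below wild-type tumours for Fgf18 and Gpc4, and sash lesions sat above wild-type lesions for the same genes.

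In tumours, all 4 genes had a lower mean in sash mice than in wild-type mice, which is how they were chosen. Fgf18 was at 13.7, 12.4, 16.9, 11.6 and 11.9 CPM in sash tumours, against 46, 29.6, 27.3, 76.5 and 20.1 CPM in wild-type tumours. Every sash tumour lay below every wild-type tumour, and wild-type tumour 4 stood highest. The log2 difference was −1.59 (SE 0.385), and it rested on 82 counts in sash tumours and 194 in wild-type tumours, a ratio of 0.33 of their shares of all counts (exact 95% interval 0.252 to 0.43, counting error only). This interval takes no account of the choice of Fgf18 on the same difference, and it tests nothing. Erbb2 was at 510.3, 395, 444, 423 and 454 CPM in sash tumours, against 770.5, 830.1, 765, 1260.3 and 503 CPM in wild-type tumours. Of the 5 sash tumours, 4 lay below every wild-type tumour, and the groups overlapped through sash tumour 1 and wild-type tumour 5. With library totals in place of TMM scaling the Erbb2 groups did not overlap. The log2 difference of Erbb2 was −0.91 (SE 0.207).

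Gpc4 was at 799, 599, 692, 674 and 687 CPM in sash tumours, against 939.7, 1133, 1091, 1248 and 1082 CPM in wild-type tumours, with a log2 difference of −0.69 (SE 0.122). The groups did not overlap, and both spreads were narrow (SD 71.2 CPM in sash tumours and 111 CPM in wild-type tumours). Inpp4b was at 162, 104, 122, 134 and 114 CPM in sash tumours, against 149, 268, 288, 354 and 209 CPM in wild-type tumours, with a log2 difference of −1.01 (SE 0.244). Here 4 of 5 sash tumours lay below every wild-type tumour, since sash tumour 1 was above wild-type tumour 1. Groups that did not overlap, with sash lower, made up 1.51% of the 797 genes tested, and 0% of the genes passed at an adjusted p below 0.05 (0 by edgeR, with 159 at an unadjusted p below 0.05, and 81 by DESeq2). The median log2 difference was −0.96 over the 4 genes and −0.05 over all genes tested, and nothing is read from this because the genes were chosen on it.

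Among the tumours, wild-type tumour 4 had the highest level of each of the 4 genes, and it also had the highest Car4, a carbonic anhydrase of surface colon epithelium. Car4 was at 1431, 1322, 548, 95.5 and 1153 CPM in sash tumours, against 230.0, 3868, 3802, 14905 and 360.4 CPM in wild-type tumours. The summed epithelial markers (3 of 16 listed genes on the panel, none at 0 throughout a group) spanned 24925 to 30490.3 CPM in sash tumours and 25882 to 49823 CPM in wild-type tumours. The neutrophil markers (3 of 7 on the panel, none at 0 throughout) summed to 367 to 735 CPM in sash tumours and 62.0 to 257 CPM in wild-type tumours. The part of these cell types in the differences was not tested. Without wild-type tumours 2 and 4, which were left out only after the data had been seen, the log2 differences were −1.22 for Fgf18, −0.60 for Erbb2, −0.58 for Gpc4 and −0.75 for Inpp4b. The Erbb2 difference thus shrank by more than 1.5 times.

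In the earlier lesions, the means of all 4 genes were higher in sash mice than in wild-type mice, the reverse of the tumours, but 0 of 4 passed the test across all genes in edgeR or DESeq2, and 2 had an unadjusted p below 0.05. Fgf18 was at 21.5, 22.2 and 41.3 CPM in sash lesions, against 10.6, 4.54 and 10.4 CPM in wild-type lesions. Every sash lesion lay above every wild-type lesion. The log2 difference of Fgf18 was 1.71 (SE 0.508, 95% interval 0.71 to 2.71), which did not pass (edgeR quasi-likelihood test, adjusted p = 0.118, unadjusted p = 0.00857). The counts were low, with 63 in sash lesions and 20 in wild-type lesions, a ratio of 3.45 (exact 95% interval 2.06 to 6.03, counting error only). Erbb2 was at 777, 668 and 854 CPM in sash lesions, against 451, 704 and 642 CPM in wild-type lesions, and the groups overlapped (log2 difference 0.34, SE 0.213, edgeR adjusted p = 0.485).

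Gpc4 was at 705, 717 and 869 CPM in sash lesions, against 378, 371 and 695 CPM in wild-type lesions. The groups stood just apart, since wild-type lesion 3 at 695 CPM came close to sash lesion 1 at 705 CPM, and with library totals they overlapped. The log2 difference of Gpc4 was 0.65 (SE 0.262, edgeR adjusted p = 0.218, unadjusted p = 0.0353). With the replicate number as a block it was 0.69 and passed (edgeR adjusted p = 0.0276), as it did without wild-type lesion 3 (log2 difference 0.99, edgeR adjusted p = 0.0311). The labels do not say that equal numbers mark pairs, so the result with the block is an alternative only. Under the same block Fgf18 had a log2 difference of 1.75 and did not pass (edgeR adjusted p = 0.0519). Inpp4b was at 621, 485 and 379.6 CPM in sash lesions, against 447, 415 and 311 CPM in wild-type lesions, with overlapping groups (log2 difference 0.31, SE 0.252, edgeR adjusted p = 0.598).

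Of the 775 genes tested in lesions, 2.84% passed, and the block raised the number that passed to 84, from 22 without it. Groups that did not overlap, with sash higher, made up 10.1% of these genes, beside which 2 of the 4 genes had such a gap. The median log2 difference was 0.50 over the 4 genes and 0.05 over all genes. Beside these values, the leukocyte markers (12 of 13 on the panel, none at 0 throughout) summed to 759 to 950.3 CPM in sash lesions and 1401 to 2943 CPM in wild-type lesions. The epithelial markers summed to 55848 to 90094 CPM in sash lesions and 50767 to 61522 CPM in wild-type lesions, while Tmigd1, another surface epithelial gene, was at 118 to 372 CPM in sash lesions and 1248 to 3489 CPM in wild-type lesions. The part of these cell types was not tested.

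**Figure D2:**
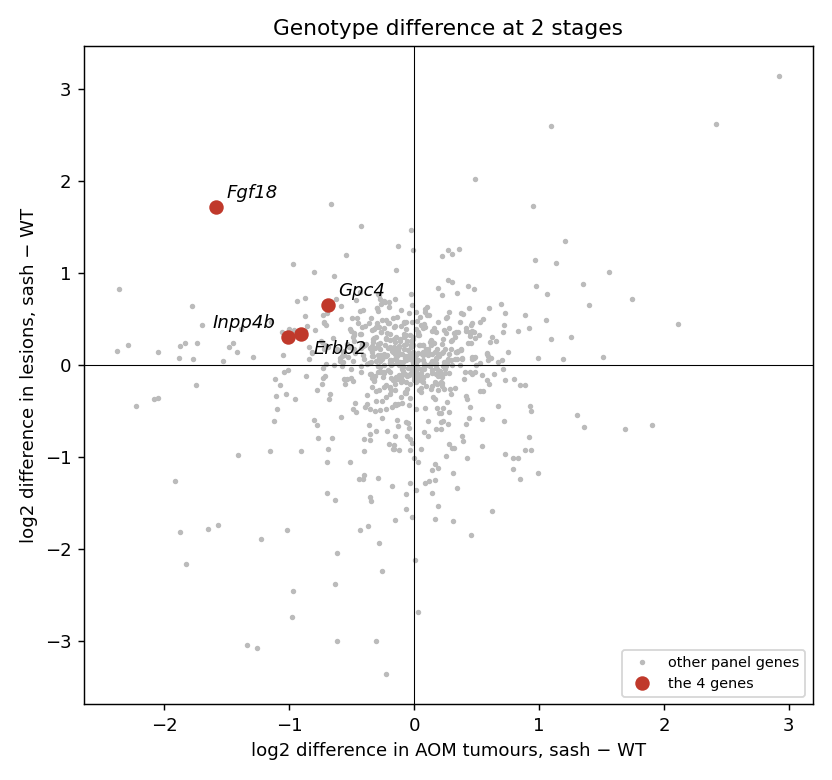
Log2 difference between sash and wild type in AOM tumours (horizontal axis) and in lesions (vertical axis) for the 740 genes tested at both stages; the 4 genes are in red. All 4 lie at the upper left, lower in sash tumours and higher in sash lesions, with Fgf18 at −1.59 and 1.71.

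The opposite directions at the stages held library by library in Fgf18 and Gpc4, for which no sash library overlapped a wild-type library at either stage after TMM scaling. With library totals the Gpc4 lesions overlapped, with sash lesions 1 and 2 at 634 and 632 CPM and wild-type lesion 3 at 642 CPM. Among the 740 genes tested at both stages, after TMM scaling, 11 were lower in every sash tumour, and of these 2 (18.2%), Fgf18 and Gpc4, were higher in every sash lesion. Over all 740 genes, 78 (10.5%) were higher in every sash lesion. In the opposite sense, 21 genes were higher in every sash tumour and 0 of them were lower in every sash lesion. Whether the genotype effect differed between the stages was not tested, because the genes were chosen on the tumour effect.

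Between the stages, the mean over both genotypes set tumours against lesions without using the difference that chose the genes. Inpp4b fell in tumours, with a log2 difference of −1.32 (SE 0.181, 95% interval −1.67 to −0.96, edgeR adjusted p = 2.67e-05). It averaged 127 ± 22.3 CPM in sash tumours and 495 ± 121 CPM in sash lesions, and 253 ± 78.0 CPM in wild-type tumours and 391 ± 71.4 CPM in wild-type lesions (SD, n = 5 tumours and 3 lesions per genotype). All 5 sash tumours lay below every sash lesion, and 4 of 5 wild-type tumours lay below every wild-type lesion. The log2 difference of Inpp4b remained between −1.43 and −1.12 under the other settings and with any 1 library left out.

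As a mean over both genotypes, Gpc4 was higher in tumours (log2 difference 0.49, SE 0.141, 95% interval 0.22 to 0.77, edgeR adjusted p = 0.00714). By genotype, its mean was higher in tumours in wild-type mice only, but that split holds the values that chose the gene and was not tested. Gpc4 averaged 1099 ± 111 CPM in wild-type tumours and 482 ± 185 CPM in wild-type lesions, with no overlap, and 690.1 ± 71.2 CPM in sash tumours and 764 ± 91.3 CPM in sash lesions, with overlap. In sash mice 4 of 5 tumours lay below every lesion. The Gpc4 call did not hold when libraries were scaled on Rpl13a, the 1 listed housekeeping gene on the panel (log2 difference 0.31, edgeR adjusted p = 0.462). Fgf18 (log2 difference 0.52, SE 0.328, edgeR adjusted p = 0.18) and Erbb2 (log2 difference −0.19, SE 0.161, edgeR adjusted p = 0.313) did not pass. At this contrast 59.4% of the 848 genes tested passed, 29.2% with tumours higher and 30.2% with tumours lower, so 2 of 4 is near the background.

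Within each genotype the stage differences are given without a test, since they hold the values that chose the genes. In sash mice, the log2 difference between tumours and lesions was −1.11 for Fgf18 (SE 0.436), −0.80 for Erbb2 (SE 0.225), −0.16 for Gpc4 (SE 0.195) and −1.97 for Inpp4b (SE 0.257). In wild-type mice it was 2.15 for Fgf18 (SE 0.497), 0.42 for Erbb2 (SE 0.231), 1.15 for Gpc4 (SE 0.204) and −0.67 for Inpp4b (SE 0.258). Fgf18 and Erbb2 were thus of opposite sign in the 2 genotypes, Gpc4 in sash mice differed by less than its SE, while Inpp4b was lower in tumours of both. For Fgf18, all sash tumours lay below all sash lesions and all wild-type tumours lay above all wild-type lesions. Over all 848 genes, 25.1% were lower in every sash tumour than in every sash lesion and 16.7% were higher in every wild-type tumour than in every wild-type lesion. Surface epithelial genes moved with stage in both genotypes, with Car4 at 95.5 to 1431 CPM in sash tumours and 33670.3 to 62115 CPM in sash lesions, and at 230.0 to 14905 CPM in wild-type tumours and 25353 to 32516 CPM in wild-type lesions. Tumours and lesions also differed in age, in the number of AOM injections and in the time since the last injection (18 weeks against 3 weeks). These cannot be told apart from the stage.

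In the drug experiment, the ligand and the receptor had lower means in both cromolyn groups than with AOM only, and 0 of the 3 genes tested passed in any of its comparisons by edgeR or DESeq2. Fgf18 was at 4.40, 3.83 and 7.10 CPM with cromolyn given together with AOM, at 4.07, 5.71 and 3.81 CPM with cromolyn after AOM, and at 14.0, 15.05 and 10.1 CPM with AOM only. Every cromolyn library lay below every AOM-only library. Such a gap was found in 10.7% of the 768 genes tested for cromolyn together with AOM and in 15.5% for cromolyn after AOM. The Fgf18 levels stand for 7 counts in each cromolyn group and 19 with AOM only, too few for the filter on low counts. Fgf18 was therefore not part of that test, nor of these percentages. The ratio of shares was 0.394 with cromolyn during AOM (exact 95% interval 0.14 to 0.98) and 0.37 with cromolyn after AOM (exact 95% interval 0.131 to 0.919), both covering counting error only and sharing the AOM-only libraries. Without the filter, Fgf18 had log2 differences of −1.35 (SE 0.559, edgeR adjusted p = 0.292) and −1.51 (SE 0.556, edgeR adjusted p = 0.174).

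Erbb2 was at 312, 473 and 362 CPM with cromolyn together with AOM, at 405, 411 and 322 CPM with cromolyn after AOM, and at 467, 628 and 501 CPM with AOM only. One library of the first group overlapped the AOM-only range and none of the second did. The log2 difference from AOM only was −0.48 (SE 0.183, 95% interval −0.84 to −0.13, edgeR adjusted p = 0.217, unadjusted p = 0.0206) for cromolyn together with AOM. For cromolyn after AOM it was −0.51 (SE 0.182, 95% interval −0.86 to −0.15, edgeR adjusted p = 0.141, unadjusted p = 0.0157). The share of genes that passed was 0.26% of 768 for cromolyn together with AOM and 4.82% for cromolyn after AOM. Groups that did not overlap, with cromolyn lower, made up 10.7% and 15.5% of the genes in the same order.

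The Gpc4 and Inpp4b libraries of each cromolyn group overlapped those with AOM only. Gpc4 averaged 479.7 ± 107 CPM with cromolyn together with AOM, 417 ± 59.5 CPM with cromolyn after AOM and 487 ± 46.5 CPM with AOM only. Its log2 difference was −0.03 (95% interval −0.38 to 0.31, edgeR adjusted p = 0.933) for the first and −0.25 (95% interval −0.59 to 0.10, edgeR adjusted p = 0.449) for the second. Inpp4b averaged 370.1 ± 14.99 CPM with cromolyn together with AOM, 407 ± 38.9 CPM with cromolyn after AOM and 375 ± 67.0 CPM with AOM only. Its intervals ran from −0.34 to 0.27 and from −0.21 to 0.40. Between the cromolyn schedules, after AOM minus together with AOM, the log2 difference was −0.03 for Erbb2 (95% interval −0.39 to 0.34), −0.21 for Gpc4 (−0.56 to 0.13) and 0.13 for Inpp4b (−0.18 to 0.43). None passed in edgeR, where 0% of 768 genes passed, with 65 at an unadjusted p below 0.05 and 6 passing in DESeq2. Beside these values, Car4 was at 11983 to 33303 CPM with cromolyn together with AOM, 8155 to 22609.9 CPM with cromolyn after AOM and 30849 to 44416 CPM with AOM only, and Epcam was at 9591 to 16548 CPM, 12110.1 to 15018 CPM and 16021 to 17397 CPM in the same groups. Tmigd1, the other epithelial marker on the panel, was at 339 to 420.3 CPM, 686 to 792 CPM and 402 to 661 CPM in these groups, higher with cromolyn after AOM than with AOM only. The part of epithelial content in the Erbb2 and Fgf18 values was not tested.

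Wild-type lesions and the AOM-only group carry the same labelled treatment, and their comparison shows how far these groups differed. Only the first is labelled as preneoplastic lesions, and its library totals were higher (616745 to 1149069 against 470661 to 544886). The tissue sampled, the depth and the experiment cannot be told apart here. Fgf18 averaged 8.50 ± 3.43 CPM in wild-type lesions and 13.1 ± 2.59 CPM with AOM only, on 20 and 19 counts (ratio 0.644, exact 95% interval of the ratio 0.326 to 1.27). The log2 difference was 0.12 for Erbb2 (edgeR adjusted p = 0.718), −0.06 for Gpc4 (edgeR adjusted p = 0.902) and 0.01 for Inpp4b (edgeR adjusted p = 0.974). The 95% intervals ran from −0.29 to 0.54 for Erbb2, from −0.56 to 0.44 for Gpc4 and from −0.43 to 0.45 for Inpp4b. In this comparison 15.6% of the 762 genes tested passed, and 0 of the 3 tested here did.

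**Figure D3:**
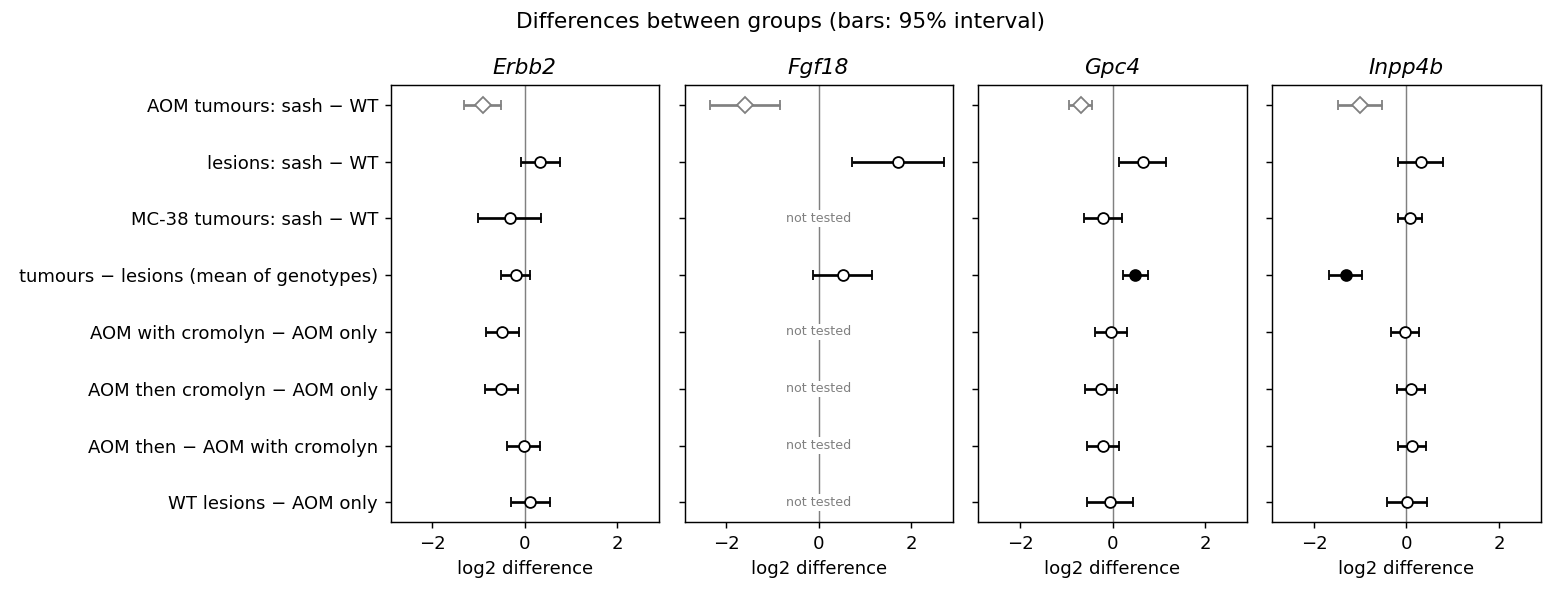
Log2 difference (first group minus second) with its 95% interval (bars), for each gene and comparison. Filled circles passed at an adjusted p below 0.05, open circles did not, and grey diamonds mark the tumour contrast that chose the genes. The bars of the diamonds take no account of that choice and test nothing. Only Gpc4 and Inpp4b between tumours and lesions are filled.

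In MC-38 tumours the levels in sash and in wild-type hosts overlapped for all 4 genes. Inpp4b was at 160.1, 136, 138, 124 and 137 CPM in sash hosts, against 120.0, 136, 126 and 137 CPM in wild-type hosts. Its log2 difference of 0.08 had a 95% interval from −0.18 to 0.34 (edgeR adjusted p = 0.752), beside the value of −1.01 in AOM tumours, and the experiments were not tested against each other. Gpc4 was at 41.0, 38.2, 52.6, 37.7 and 30.7 CPM in sash hosts, against 38.9, 42.7, 52.8 and 47.8 CPM in wild-type hosts (log2 difference −0.21, 95% interval −0.63 to 0.20, edgeR adjusted p = 0.589). Erbb2 was at 20.5, 21.6, 42.5, 13.3 and 30.7 CPM in sash hosts, against 42.2, 20.7, 36.9 and 26.9 CPM in wild-type hosts (log2 difference −0.33, 95% interval −1.01 to 0.36, edgeR adjusted p = 0.603). Fgf18 had 2, 2, 3, 6 and 0 counts in sash hosts, against 2, 2, 4 and 4 counts in wild-type hosts, and at this depth no difference could be detected (ratio 1.04, exact 95% interval 0.439 to 2.5). Of the 714 genes tested, 1.26% passed, and of the 3 genes tested here 0 passed in edgeR or DESeq2, nor at an unadjusted p below 0.05. The epithelial markers summed to 47.2 to 189 CPM in sash hosts and 24.3 to 72.8 CPM in wild-type hosts, where Tmigd1 was at 0 throughout.

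**Figure D4:**
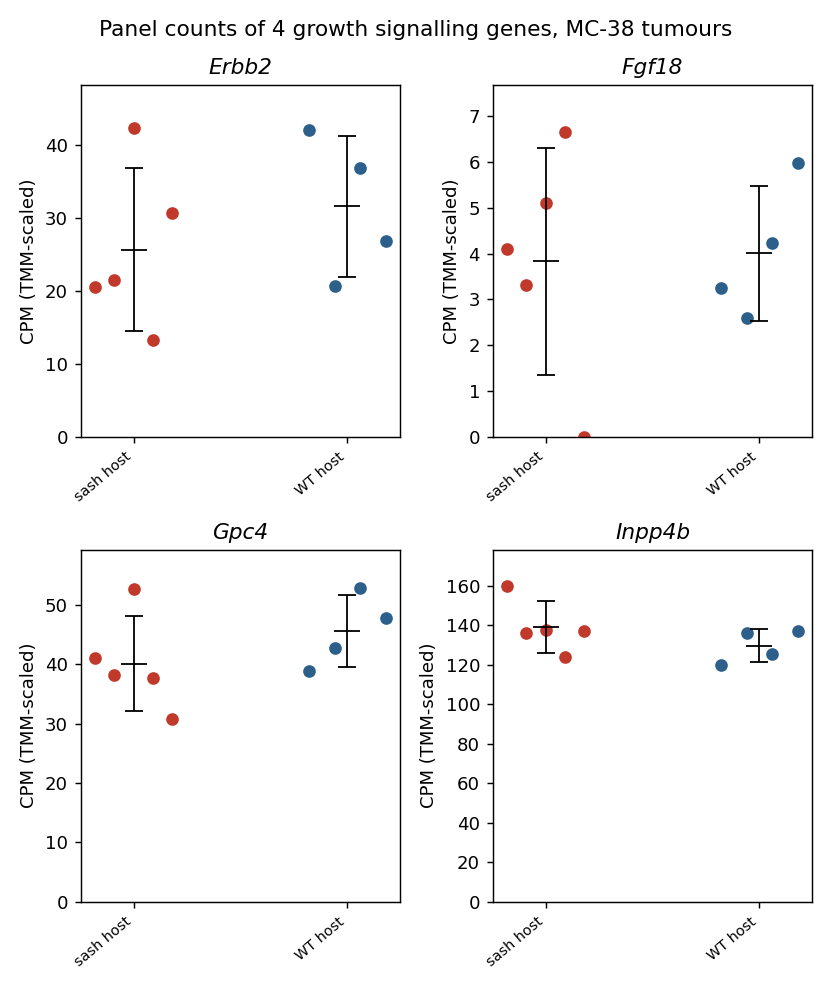
Level of each gene (CPM, TMM-scaled within the MC-38 libraries, linear axis from 0) in MC-38 tumours of sash hosts (n = 5) and of wild-type (WT) hosts (n = 4); points are libraries and bars are the mean ± SD. The groups overlap for every gene, and Fgf18 rests on at most 6 counts a library.

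The order of the 7 AOM groups differed between the genes. Fgf18 averaged 39.9 ± 22.6 CPM in wild-type tumours, 28.3 ± 11.2 CPM in sash lesions, 13.3 ± 2.17 CPM in sash tumours, 13.1 CPM with AOM only, 8.50 CPM in wild-type lesions, 5.11 ± 1.75 CPM with cromolyn together with AOM and 4.53 ± 1.03 CPM with cromolyn after AOM. Of the neighbours in this order, only sash lesions and sash tumours did not overlap. Erbb2 ran from 826 ± 274 CPM in wild-type tumours and 766 ± 93.1 CPM in sash lesions through 599 ± 132 CPM in wild-type lesions, 532 ± 84.9 CPM with AOM only and 445 ± 42.9 CPM in sash tumours to 383 ± 82.1 CPM with cromolyn together with AOM and 379 ± 50.1 CPM with cromolyn after AOM. Every pair of neighbours in the order of Erbb2 overlapped. For Gpc4, wild-type tumours stood above sash lesions and sash tumours, which overlapped each other, and the 4 other groups lay lower and overlapped among neighbours. Inpp4b had the reverse layout, with the 5 groups of 14 weeks at 370.1 to 495 CPM on average and the tumour groups lowest, and its neighbours all overlapped.

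Over the 25 AOM libraries, Fgf18, Gpc4 and Erbb2 varied together, and Inpp4b had lower correlations with each of them. Pearson's r of log2 CPM was 0.835 between Fgf18 and Gpc4, 0.793 between Erbb2 and Fgf18 and 0.684 between Erbb2 and Gpc4. With Inpp4b it was 0.181 for Erbb2, −0.198 for Fgf18 and −0.347 for Gpc4. The tumours on which the genes were chosen are among these libraries, so part of the likeness between groups was built in by the choice. These libraries also share groups, depth and scaling, and after group means were subtracted the first 3 values were 0.316, 0.448 and 0.449, so part of the likeness lay between groups. With Inpp4b they were then 0.388 for Erbb2, −0.017 for Fgf18 and 0.064 for Gpc4, so within groups Inpp4b went with Erbb2 about as far as Gpc4 went with Fgf18. Among 806 genes with a mean of at least 10 counts per library, the gene most like Erbb2 was Gcnt1, an enzyme that branches O-linked glycans (r = 0.821, Spearman's rho = 0.795, 0.569 after group means), followed by Vwa5a (r = 0.802, rho = 0.795) and Fgf18 (rho = 0.748). Smad2, which carries transforming growth factor β signals, was nearest to Fgf18 (r = 0.85, rho = 0.825, 0.453 after group means) and to Gpc4 (r = 0.849, rho = 0.843, 0.459 after group means). The interferon-γ receptor chain Ifngr2 came after Fgf18 for Gpc4 (r = 0.833, rho = 0.826, 0.186 after group means).

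Inpp4b was most like Vdr, the vitamin D receptor (r = 0.917, rho = 0.748, 0.616 after group means), Serpinb6a, a serine protease inhibitor (r = 0.915, rho = 0.788, 0.567 after group means), and Hpgd, which degrades prostaglandins (r = 0.904, rho = 0.595, 0.57 after group means). Vdr averaged 229 ± 100.4 CPM in sash tumours and 810.0 ± 846 CPM in wild-type tumours, against 2055 ± 216 CPM in sash lesions and 1719 ± 261 CPM in wild-type lesions. Smad2 averaged 1053 ± 45.1 CPM in sash tumours and 1145 ± 171 CPM in wild-type tumours, and 1143 ± 76.2 CPM in sash lesions and 787 ± 67.9 CPM in wild-type lesions. These values describe the same libraries and were not tested.

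Of the other growth signalling genes listed (growth factor ligands, receptors, the PI3K and AKT branch, the RAS and MAP kinase branch and WNT genes), 17 were on the panel. In AOM tumours 0 of 16 tested passed in either direction between sash and wild type in edgeR, 10 with a difference above 0 and 6 below, and the median log2 difference was 0.11 against −0.05 over all genes. In lesions 0 of 16 passed, and in MC-38 tumours 0 of 17 passed, again in edgeR. With cromolyn after AOM, 0 of 16 rose and 2 fell, the WNT receptor Fzd2 (log2 difference −0.58, SE 0.146, edgeR adjusted p = 0.0428) and the lymphatic growth factor Vegfc (log2 difference −0.79, SE 0.175, edgeR adjusted p = 0.0338). Over all genes 2.47% were lower at this threshold. With Rpl13a scaling 0 genes were called lower in this comparison in edgeR, so neither call held. The stroma markers summed to 10077 to 10789 CPM with cromolyn after AOM and 13023 to 14668 CPM with AOM only, but they did not all go 1 way. Among them the collagen gene Col3a1 was lower, at 6966 to 8101 CPM against 10792 to 12444 CPM with AOM only, as was Pdgfrb. The matrix gene Fn1 was higher, at 2127 to 3539 CPM against 1918 to 2054 CPM with AOM only, and Fap overlapped. The part of stroma was not tested. With cromolyn together with AOM, and between the cromolyn schedules, 0 of 16 passed in edgeR.

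Between tumours and lesions, 5 of 17 listed genes rose, a share near the 29.2% of all genes tested that rose, so nothing is particular to the list. Dusp4, a phosphatase that acts on MAP kinases, averaged 1830.0 ± 560.3 CPM in sash tumours and 243 ± 13.3 CPM in sash lesions, and 1428 ± 651 CPM in wild-type tumours and 217 ± 54.0 CPM in wild-type lesions (log2 difference 2.79, SE 0.263, edgeR adjusted p = 6.56e-07). Both genotypes thus had more Dusp4 in tumours. The secreted WNT ligand Wnt5a rose by a log2 difference of 2.54 (edgeR adjusted p = 4.78e-05) and Cd44, a hyaluronan receptor and WNT target, by 1.96 (edgeR adjusted p = 3.37e-05). The receptors Pdgfrb (1.28, edgeR adjusted p = 0.00145) and Epha2 (0.81, edgeR adjusted p = 0.0132) rose as well. Pdgfrb is itself one of the stroma markers (4 of 13 listed genes on the panel, none at 0 throughout), whose sum was 7953 to 14448 CPM in sash tumours and 2291 to 12023 CPM in sash lesions, and 4459 to 19868 CPM in wild-type tumours and 2377 to 7357 CPM in wild-type lesions. Another of them, the matrix gene Fn1, was at 3368 to 7178 CPM in sash tumours and 624.7 to 3432 CPM in sash lesions, and at 1621 to 10515 CPM in wild-type tumours and 702 to 1421 CPM in wild-type lesions. Fap, also among them, went the other way, at 6.64 to 19.9 CPM in sash tumours and 30.7 to 86.1 CPM in sash lesions. In wild-type mice Fap was at 17.7 to 43.4 CPM in tumours and 31.1 to 89.4 CPM in lesions. Col3a1 overlapped between the stages in both genotypes. The neutrophil markers summed to 367 to 735 CPM in sash tumours and 7.16 to 15.3 CPM in sash lesions, and to 62.0 to 257 CPM in wild-type tumours and 6.06 to 8.84 CPM in wild-type lesions. The part of these cell types in the stage changes was not tested. Between wild-type lesions and AOM only, which share a labelled treatment, 2 of 16 listed genes rose and 4 fell, beside 8.66% and 6.96% of all genes tested. Epha2 (2.09, edgeR adjusted p = 0.0101) and Nrp1, a co-receptor of vascular growth factors (2.22, edgeR adjusted p = 0.00876), were higher in wild-type lesions. Fzd2 (−1.59, edgeR adjusted p = 0.0289), Wnt5a (−1.42, edgeR adjusted p = 0.0125), Vegfc (−1.14, edgeR adjusted p = 0.027) and Kdr, a receptor of vascular growth factors (−0.98, edgeR adjusted p = 0.0481), were lower in wild-type lesions. Kdr is the 1 of 8 listed endothelium markers on the panel. The stroma markers summed to 2377 to 7357 CPM in wild-type lesions and 13023 to 14668 CPM with AOM only, and among them the collagen gene Col3a1 was at 1515 to 5750.2 CPM in wild-type lesions and 10792 to 12444 CPM with AOM only. Fn1 and Pdgfrb were also lower in every wild-type lesion, while Fap overlapped, at 31.1 to 89.4 CPM and 38.5 to 63.1 CPM in the same order. The part of these cell types was not tested.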

How the data were processed

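RNA was read with a targeted panel (QIAseq Targeted RNAseq Mouse Immuno-Oncology), per the labels' protocols. The authors deposited raw counts for each gene, not normalised, in 1 table of 25 AOM libraries and 1 of 9 MC-38 libraries. Of 993 entries, 5 control entries were at 0 in every library and were left out. The submitters' processing notes name the build mm9 and DESeq2; the aligner is not given in the sources used here, nor is the unit counted (reads or molecular tags), so intervals cover counting error only. Of 36 samples labelled, 2 MC-38 samples were not analysed here. The labels do not say that samples came from separate mice, so p-values measure the spread between samples, which may be technical.

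Tests used edgeR 4.0.16 in R 4.3.3 (quasi-likelihood F-test on counts) with TMM scaling, the filterByExpr filter (minimum count 10, minimum total 15) and Benjamini-Hochberg adjustment over all genes tested, at a threshold of 0.05. Genotypes were fitted separately for tumours, lesions and MC-38, the 3 groups of the drug experiment jointly, and tumours and lesions of both genotypes jointly for stage. CPM were scaled over all libraries of a table. Intervals of log2 differences are the estimate with its SE under a normal distribution. The fits were tested on simulated data. Exact intervals came from scipy 1.17.1. Alternatives were DESeq2 1.42.0, other scalings, no filter, all groups fitted together, the replicate number as a block and leaving out libraries. The labels do not say that same-numbered samples are pairs, and the fits reported hold no block. Deviations of same-numbered samples correlated at 0.384, 0.154 and 0.513 in lesions and at 0.249, 0.002 and 0.629 in MC-38 tumours. Samples of unlike number were not compared, so these values cannot show pairing. The genes and lists were chosen with earlier results of these data known. Named genes were the 4 genes, listed growth genes that passed (1 result that this names is not reported here), and for each of the 4 the 3 genes with the highest Pearson's r. Promoters were matched by symbol; no coordinates of amplicons are given.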

Additional observations from a re-analysis of the deposited data

Results flagged for a closer look

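For Fgf18 and Gpc4, every sash tumour was lower than every wild-type tumour while every sash lesion was higher than every wild-type lesion, after TMM scaling. With library totals the Gpc4 lesions overlapped. The log2 differences of Fgf18 were −1.59 in AOM tumours and 1.71 in lesions. Those of Gpc4 were −0.69 in AOM tumours and 0.65 in lesions. The difference between the stages was not tested. In 16 sets of libraries, each of 1 gene in 1 group of 4 or 5 tumours, 0 had a sample far from the others.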

How the results depend on the processing

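The log2 differences of the 4 genes between sash and wild type kept their sign in tumours and lesions under all alternatives run, as did those between stages and those of Erbb2, Gpc4 and Inpp4b in MC-38 tumours. Fgf18 was tested in MC-38 tumours only without the filter. In tumours the genes were chosen on this contrast, so the counts describe how the settings differ and test nothing: 0 of 4 genes passed in the fit reported, 1 with library totals, 4 with DESeq2, 4 with all groups fitted together, and 0 to 1 with any replicate left out (Gpc4, without sash tumour 1 or wild-type tumour 4). Over all genes, 0 of 797 passed in the fit reported, 1 higher and 1 lower with library totals, and at most 88 under the other settings. In lesions 0 passed in the fit reported, 1 with all groups fitted together (Fgf18, edgeR adjusted p = 0.0479), 1 with the replicate block (Gpc4), and 0 to 1 with any replicate left out. Between stages 2 passed in the fit reported and 1 with Rpl13a scaling. The count was 0 under all alternatives in MC-38 tumours and in the drug and experiment comparisons.

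Small differences changed sign. With library totals, cromolyn together with AOM gave 0.017 for Gpc4 and 0.018 for Inpp4b, the schedules 0.028 for Erbb2, and wild-type lesions against AOM only −0.0047 for Inpp4b. With Rpl13a scaling the schedules gave 0.37 for Erbb2 and 0.19 for Gpc4, and wild-type lesions against AOM only −0.28 for Erbb2 and −0.51 for Inpp4b. With no filter that last comparison gave −0.00059 for Inpp4b. With any replicate left out, cromolyn together with AOM spanned −0.14 to 0.14 for Gpc4 and −0.142 to 0.0575 for Inpp4b, cromolyn after AOM −0.0182 to 0.203 for Inpp4b, the schedules −0.15 to 0.17 for Erbb2, and wild-type lesions against AOM only −0.42 to 0.11 for Gpc4 and −0.12 to 0.16 for Inpp4b. The cause was not tested.

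Over all genes, Rpl13a scaling moved the median log2 difference to −0.43 between wild-type lesions and AOM only, 0.41 between the schedules and −0.30 for cromolyn together with AOM, and library totals moved it to 0.22 between stages. Numbers of genes that passed were unstable, at 0 to 88 in tumours, 0 to 84 in lesions, 3 to 48 in MC-38 tumours, 0 to 56 for cromolyn after AOM, 0 to 42 for cromolyn together with AOM, 11 to 268 between experiments and 335 to 545 between stages. Genes higher and lower numbered 248 and 256 between stages, 322 and 195 with library totals. For cromolyn after AOM they numbered 18 and 19, against 20 and 8 with library totals and 10 and 0 with Rpl13a scaling. The block changed no other call of the 4 genes, and the labels do not say that the numbers are pairs in any comparison. Fgf18 is limited by depth, at 0 to 76.5 CPM and mostly under 50 counts a library.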
